A study of Mus musculus with 6 samples.

Results

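The genes described here belong to the control of the cell division cycle, and not all of them hold it back. There are 5 inhibitors of the cyclin-dependent kinases (Cdkn1a, Cdkn1b, Cdkn2b, Cdkn2c and Cdkn2d) and the 3 growth arrest genes of the Gadd45 family (Gadd45a, Gadd45b and Gadd45g). Mdm2 and Ccng1 are targets and regulators of the p53 tumour suppressor, and MDM2 lowers p53. All these genes were taken from the heart expression table by their gene symbol, with every probe kept. All 10 were found, among 18138 gene symbols, with 21 of the 25697 probes.

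The hearts came from male FVB pups (FVB/N in the methods) at postnatal day 6, with 3 hearts in the hSRY-ON group and 3 in the hSRY-OFF group. hSRY-ON pups carried the Signalox-hSRY transgene, 1 copy at the H11 locus of chromosome 11, in its recombined form, in which the CAG promoter, active in most cell types, drives FLAG-tagged human SRY and, behind an IRES, EGFP. The recombination took place in the single-cell embryo, through Cre left in the egg by Ddx4-Cre mothers, and the hSRY-ON pups used for the arrays did not themselves carry Ddx4-Cre. The methods define hSRY-OFF as the same transgene not recombined, while littermates with Ddx4-Cre alone or with no transgene are also described as controls, so the exact genotype of the hSRY-OFF hearts is not settled by the sources used here. Human SRY, normally the testis-determining factor of the Y chromosome, was thus made across the body and not in heart muscle alone. RNA was taken from dissected heart tissue, and whether the whole organ was used is not stated in the sources used here.

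The kinase inhibitors fall into 2 structural families. The CIP/KIP proteins p21 (Cdkn1a) and p27 (Cdkn1b) bind complexes of cyclins with their kinases, and the INK4 proteins p15 (Cdkn2b), p18 (Cdkn2c) and p19 (Cdkn2d) bind CDK4 and CDK6 and keep them from the D cyclins. Gadd45 proteins are small stress-induced proteins that bind PCNA, the CDK1 kinase and the kinase MAP3K4 upstream of p38 and JNK. p53 switches on Cdkn1a, Gadd45a, Mdm2 and Ccng1, and MDM2 is the ubiquitin ligase that brings p53 back down. Heart muscle cells of the mouse leave the cell cycle in the first days after birth, the age studied here.

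RefSeq (build GRCm38.p6) held 12 start sites for the 10 genes, at least 1 for each. The 250 bases before the start are shown for the 5 genes with a probe that passed the test described below, so that the letters before their starts can be set side by side. Capitals mark matches on either strand to the GC box (GGGCGG), the CCAAT box (CCAAT), the TATA box (TATAAA) and the p53 decamer, the 10-base unit of the p53 response element, which was also sought as a pair of adjacent units with at most 1 mismatch. The windows are chr17:29090729-29090978 (plus strand) before the upstream of the Cdkn1a starts, chr4:109666757-109667006 (minus strand) before the GC-rich one of the Cdkn2c starts, chr10:80929841-80930090 (plus strand) for Gadd45b, chr10:117710759-117711008 (minus strand) for Mdm2 and chr11:40755287-40755536 (minus strand) for Ccng1.
Cdkn1a: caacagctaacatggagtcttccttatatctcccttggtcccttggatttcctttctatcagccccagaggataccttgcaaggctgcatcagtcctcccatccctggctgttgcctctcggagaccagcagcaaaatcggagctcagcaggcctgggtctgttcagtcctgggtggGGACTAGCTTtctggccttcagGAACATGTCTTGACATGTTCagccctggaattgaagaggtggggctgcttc
Cdkn2c: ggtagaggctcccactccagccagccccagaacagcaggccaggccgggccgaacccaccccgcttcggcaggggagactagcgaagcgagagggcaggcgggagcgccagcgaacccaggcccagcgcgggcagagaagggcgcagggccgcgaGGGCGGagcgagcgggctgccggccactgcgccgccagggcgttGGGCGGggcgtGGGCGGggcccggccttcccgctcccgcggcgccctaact
Gadd45b: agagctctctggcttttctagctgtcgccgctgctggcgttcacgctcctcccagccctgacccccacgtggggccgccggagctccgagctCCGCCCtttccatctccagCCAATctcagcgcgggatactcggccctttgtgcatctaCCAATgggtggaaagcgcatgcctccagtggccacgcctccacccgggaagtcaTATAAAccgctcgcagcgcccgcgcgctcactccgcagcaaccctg
Mdm2: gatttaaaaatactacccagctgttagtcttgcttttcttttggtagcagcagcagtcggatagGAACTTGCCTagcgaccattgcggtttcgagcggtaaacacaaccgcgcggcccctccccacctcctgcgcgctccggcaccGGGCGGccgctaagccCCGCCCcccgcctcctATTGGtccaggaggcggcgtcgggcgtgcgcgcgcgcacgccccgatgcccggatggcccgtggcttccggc
Ccng1: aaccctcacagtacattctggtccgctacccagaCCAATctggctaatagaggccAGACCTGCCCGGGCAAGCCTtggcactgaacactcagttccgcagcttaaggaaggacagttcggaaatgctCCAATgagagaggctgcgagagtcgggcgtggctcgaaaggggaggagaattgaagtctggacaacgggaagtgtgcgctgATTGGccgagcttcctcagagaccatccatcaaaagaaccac

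The Cdkn1a and Ccng1 windows each held a pair of adjacent p53 decamers, whose upstream ends lay 51 and 195 bases before the start. Such a pair was present in 25 of 32851 RefSeq promoter windows of the same length, or 0.0761%. A single decamer, present in 7.13% of all windows, also lay in the windows of Mdm2 (186 bases before the start), Gadd45a (40) and Cdkn2d (102), where in the last it overlapped a GC box. GC boxes, present in 32.7% of windows, numbered 3 before the printed Cdkn2c start, 2 before Mdm2 and 1 before Gadd45b, and the 2 CCAAT boxes and the TATA box of the Gadd45b window belong to motifs found in 33.8% and 12.4% of windows. The short core AACAAT that SOX proteins such as SRY can bind, found in 9.42% of windows, was in none of the 12 windows of these genes. These are matches of letters only.

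Each array gave the mean brightness of the beads of each probe. After background correction and quantile normalization, probes above background on at least 3 of the 6 arrays were compared between the groups with limma, and a probe passed when its p, adjusted by the Benjamini-Hochberg method over the 12970 probes tested, was under 0.05. Levels are normalized log2 intensities, and differences are hSRY-ON minus hSRY-OFF on that log2 scale. With 3 hearts a group, an exact permutation test of a single value cannot go below p = 0.1. Between 47.2% and 51.3% of the probes were above background on each array, and hSRY-OFF replicate 3 was the dimmest (mean intensity of its probes 631, the other arrays 723 to 939). The hearts were bright for the muscle genes Actn2, Myl2, Nppa and Tnnc1 in both groups. These are among 13 tested cardiomyocyte markers, of which 1 was higher and 5 were lower in hSRY-ON hearts. Over all genes 14.9% were higher and 13.9% lower.

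Of the 21 member probes, 16 were tested, which covered 8 of the 10 genes, and 7 passed. In all, 3 were higher in hSRY-ON hearts, 1 each for Cdkn1a, Gadd45b and Mdm2, and 4 were lower, 1 for Cdkn2c and all 3 for Ccng1. Over the whole array 27.5% of tested probes passed, 13.8% as higher and 13.7% as lower. The median size of a difference was 0.56 over the member probes and 0.30 over all tested probes, and the signed medians were 0.32 and -0.01. The 2 groups of hearts did not overlap for 10 of the 16 member probes, 6 with hSRY-ON above and 4 below, where 45.2% of all tested probes showed no overlap, 23.6% with hSRY-ON above and 21.6% below. With 1 probe a gene, the brightest, 3 of 8 genes were higher and 2 lower, beside 14.9% and 13.9% of all genes, or 28.8% in either direction. Probes of 1 gene measure the same RNA and are not independent of each other. The members were chosen with earlier results of these data known, so these shares describe them and do not test them as a set.

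**Figure D1:**
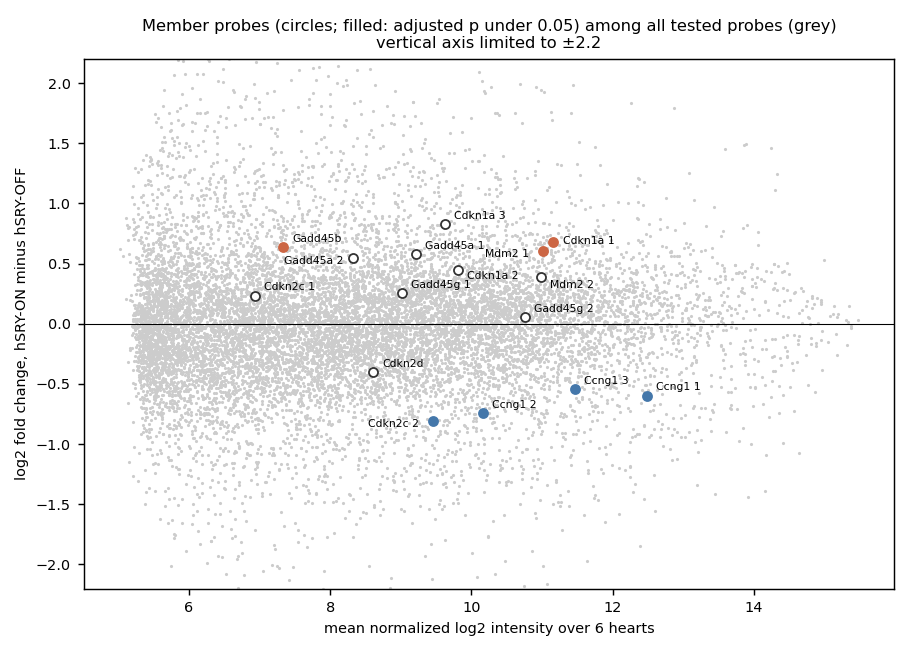
Difference between hSRY-ON and hSRY-OFF hearts (log2 scale, vertical axis) against the mean normalized log2 intensity over the 6 hearts (horizontal axis), with all 12970 tested probes in grey and the 16 member probes as circles, filled where they passed the test. The 7 filled circles lie at sizes between 0.55 and 0.81, within the cloud of all probes, and 174 grey probes beyond 2.2 in either direction are not drawn.

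Cdkn1a encodes p21, which stops cells in G1 after p53 or stress signals. In its brightest probe (probe 1, ILMN_2634083) the log2 intensity was 10.88, 10.67 and 10.88 in the hSRY-OFF hearts and 11.54, 11.77 and 11.16 in the hSRY-ON hearts. Each hSRY-ON heart lay above each hSRY-OFF heart, with hSRY-ON replicate 2 the highest and hSRY-ON replicate 3 the nearest to the controls. The mean rose from 10.81 ± 0.12 to 11.49 ± 0.31 (SD, n = 3 each), a difference of 0.68 (SE 0.18, 95% interval 0.27 to 1.08, limma adjusted p = 0.0257), or about 1.6-fold.

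The other Cdkn1a probes pointed the same way and did not pass. Probe 3 (ILMN_2846776) read 9.46, 8.57 and 9.59 in hSRY-OFF and 10.14, 10.19 and 9.78 in hSRY-ON hearts, again without overlap, and its difference of 0.83 (SE 0.27) had a limma adjusted p of 0.0568. Its lowest reading was that of hSRY-OFF replicate 2, without which the difference was 0.51 (adjusted p = 0.0836). Of the 6 omissions only that of hSRY-OFF replicate 3 let the probe pass (1.02, adjusted p = 0.0371), and the others had adjusted p up to 0.144. Probe 2 (ILMN_2846775) read 9.85, 9.34 and 9.56 against 9.996, 10.29 and 9.81, so that hSRY-ON replicate 3 fell inside the control range, and its difference was 0.45 (SE 0.18, limma adjusted p = 0.106). The differences of the 3 probes lay within each other's 95% intervals. The call of probe 1 was lost when hSRY-OFF replicate 1 (adjusted p = 0.0619), hSRY-OFF replicate 2 (0.0802), hSRY-ON replicate 1 (0.0775) or hSRY-ON replicate 2 (0.0653) was left out, with differences between 0.54 and 0.84 over all 6 omissions. It was also lost without normalization between arrays (0.58, adjusted p = 0.217).

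The other CIP/KIP inhibitor among the members, p27, could not be followed. Of the 3 Cdkn1b probes, 2 were above background on no array. The remaining one (ILMN_2638428) passed background on 2 hSRY-ON arrays and on no hSRY-OFF array, with deposited intensities of 161, 181 and 153 against 155, 197 and 172. These readings overlap and stand close to the lowest intensities of the arrays, so no difference is given. Cdkn1c, which encodes p57, the remaining member of that protein family and an imprinted gene of growing tissues, was higher in hSRY-ON hearts: it read 12.11, 12.10 and 12.13 against 12.91, 12.82 and 12.56, a difference of 0.65 (SE 0.13, limma adjusted p = 0.00904). The hSRY-OFF hearts were within 0.03 of each other for Cdkn1c, and all hSRY-ON hearts lay above them. Only the setting without normalization between arrays ended that call (adjusted p = 0.271).

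**Figure D2:**
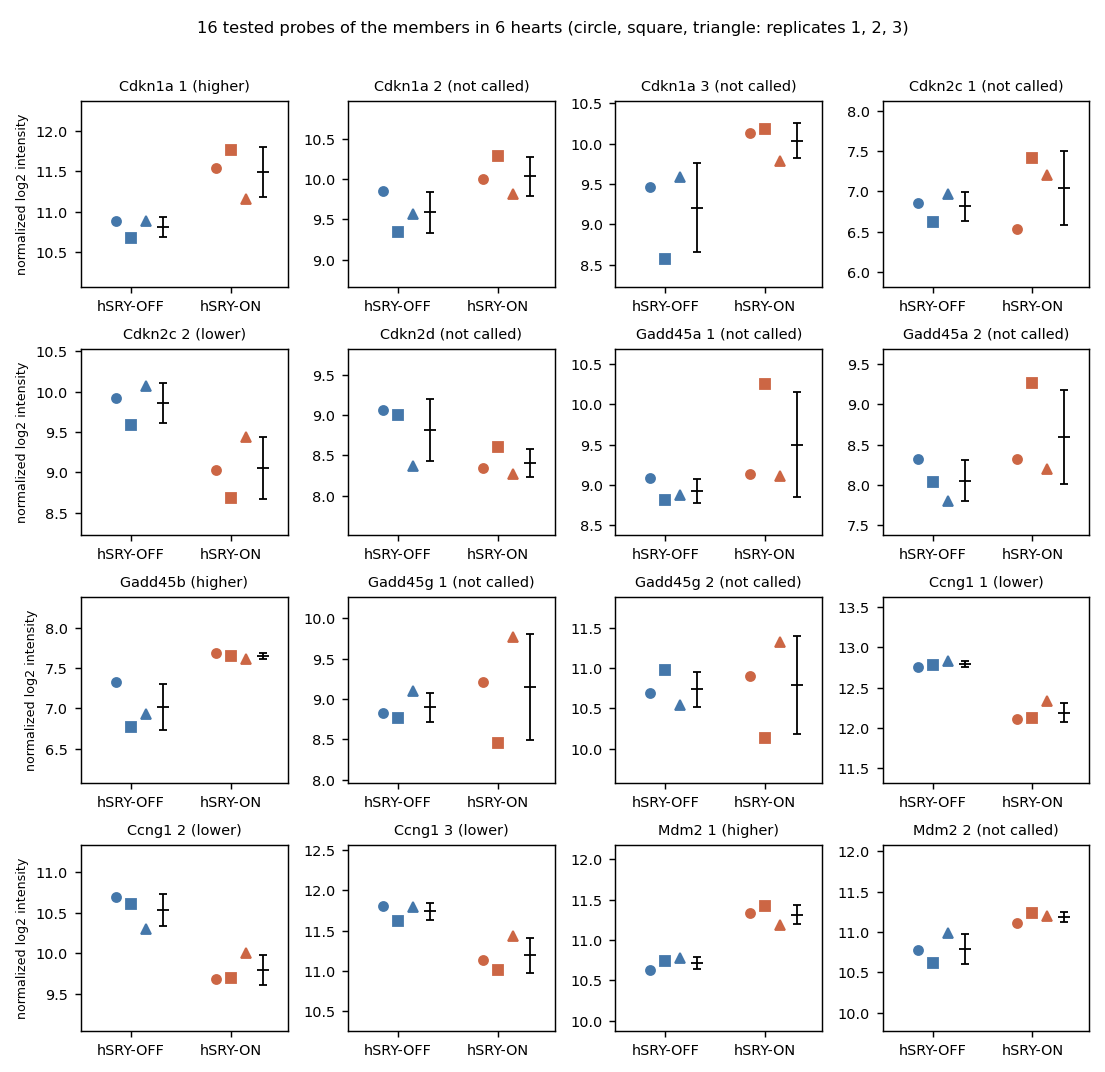
Normalized log2 intensity (vertical axis) of each of the 16 tested member probes in the 3 hSRY-OFF hearts (blue) and 3 hSRY-ON hearts (orange), with circles, squares and triangles for replicates 1, 2 and 3 and the mean and SD in black. Every panel spans the same number of log2 units, and the groups are apart in 10 panels, while the Gadd45a and Gadd45g panels show hSRY-ON replicate 2 far from its group.

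Among the INK4 inhibitors, Cdkn2c, which encodes p18, was lower in hSRY-ON hearts by its bright probe. That probe (probe 2, ILMN_1228366) read 9.93, 9.59 and 10.07 in hSRY-OFF and 9.03, 8.68 and 9.44 in hSRY-ON hearts. The groups did not overlap, though hSRY-ON replicate 3 came within 0.15 of hSRY-OFF replicate 2. The difference was -0.81 (SE 0.22, 95% interval -1.31 to -0.31, limma adjusted p = 0.029), which is 1.75-fold lower. It passed under all 9 other ways of processing that kept every heart, and was lost without hSRY-OFF replicate 1 (adjusted p = 0.0859), hSRY-OFF replicate 3 (0.0705), hSRY-ON replicate 1 (0.0777) or hSRY-ON replicate 2 (0.0725), with differences from -1.0 to -0.63.

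The dimmer Cdkn2c probe (probe 1, ILMN_1215651) did not show the decrease. Its readings were 6.85, 6.62 and 6.97 against 6.53, 7.41 and 7.20, with hSRY-ON replicate 1 the lowest of all hearts and the other 2 hSRY-ON hearts the highest. Its difference was 0.23 (SE 0.23, 95% interval -0.30 to 0.77, limma adjusted p = 0.49). Taken within each heart, probe 1 minus probe 2 ran from -3.10 to -2.97 among hSRY-OFF hearts and from -2.50 to -1.27 among hSRY-ON hearts, a change of 1.04 with no overlap between groups (exact permutation test, two-sided, p = 0.1, the smallest that 3 against 3 allows). Of the 10 pairs of probes of the same gene compared in this way, only 1 other, Cdkn1a probe 1 against probe 2, also kept the groups apart (change 0.23, exact permutation p = 0.1), and adjusted over the 10 pairs by the Benjamini-Hochberg method both exact p became 0.5. Which part of the Cdkn2c transcripts each probe reads is not given in the sources used here, and RefSeq lists 2 start sites for the gene.

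Cdkn2d, which encodes p19, read 9.06, 9.0 and 8.37 in hSRY-OFF and 8.35, 8.60 and 8.27 in hSRY-ON hearts (ILMN_1225214). The dim array, hSRY-OFF replicate 3, lay among the hSRY-ON hearts, and the difference of -0.40 (SE 0.20, 95% interval -0.88 to 0.07) did not pass (limma adjusted p = 0.182). Without hSRY-OFF replicate 3 the difference was -0.63 with an adjusted p of 0.0232, and the other omissions, which left it between -0.50 and -0.28, did not let it pass. Cdkn2b, which encodes p15, was above background on 1 array of each group (ILMN_1227240, intensities of 190, 183 and 139 against 157, 152 and 170) and was not tested. Cdkn2a, the INK4 gene that also encodes the MDM2 inhibitor ARF, was above background on no array.

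The Gadd45 genes did not behave as one. Gadd45b, an early stress gene of the family, was higher in hSRY-ON hearts: its probe (ILMN_2900653) read 7.33, 6.78 and 6.93 in hSRY-OFF and 7.68, 7.65 and 7.61 in hSRY-ON hearts. The hSRY-ON hearts lay close together, with an SD of 0.04 beside 0.28 in hSRY-OFF, and all above hSRY-OFF replicate 1, the highest control. The difference was 0.64 (SE 0.16, 95% interval 0.26 to 1.0, limma adjusted p = 0.0232), or 1.55-fold. The deposited intensities, before background correction and normalization, were 333, 292 and 213 against 320, 329 and 311 and overlapped, since hSRY-OFF replicate 1 was then the highest of all. The call ended without normalization between arrays (0.50, adjusted p = 0.309), and without background correction the difference was 0.32 and passed (adjusted p = 0.021). It was also lost on leaving out hSRY-OFF replicate 2 (adjusted p = 0.0708), hSRY-OFF replicate 3 (0.0527), hSRY-ON replicate 1 (0.0714), hSRY-ON replicate 2 (0.057) or hSRY-ON replicate 3 (0.0507), so that of the 6 omissions only that of hSRY-OFF replicate 1 kept it.

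Gadd45a, the p53-responsive member, had a difference of similar size that rested on 1 heart. Probe 1 (ILMN_2742152) read 9.09, 8.81 and 8.87 in hSRY-OFF and 9.14, 10.26 and 9.11 in hSRY-ON hearts. Probe 2 (ILMN_2947568) read 8.32, 8.03 and 7.81 against 8.32, 9.26 and 8.2. In both, hSRY-ON replicate 2 stood about 1 log2 unit above every other heart. In probe 1 hSRY-ON replicates 1 and 3 were just above the control range. In probe 2 hSRY-ON replicate 1 was at its upper edge and hSRY-ON replicate 3 inside it. The differences were 0.58 (SE 0.30, 95% interval -0.12 to 1.27, limma adjusted p = 0.192) and 0.54 (SE 0.28, limma adjusted p = 0.197), and without hSRY-ON replicate 2 they were 0.20 and 0.21.

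For Gadd45g the same heart went the other way. Probe 1 (ILMN_2744890) read 8.83, 8.76 and 9.10 in hSRY-OFF and 9.21, 8.46 and 9.77 in hSRY-ON hearts, and probe 2 (ILMN_2903945) read 10.68, 10.97 and 10.55 against 10.91, 10.13 and 11.33. In each probe hSRY-ON replicate 2 was the lowest and hSRY-ON replicate 3 the highest of the 6 hearts, so the hSRY-ON hearts enclosed the controls. The differences were 0.25 (SE 0.30, limma adjusted p = 0.573) and 0.05 (SE 0.29, 95% interval -0.62 to 0.73, limma adjusted p = 0.911). The hSRY-ON hearts were more widely spread in these probes, with SDs of 0.66 and 0.61 in hSRY-ON beside 0.18 and 0.22 in hSRY-OFF hearts, a difference in spread that was not tested. Over the 16 member probes, several of which read the same gene, hSRY-ON replicate 2 was the highest of the 6 hearts in 8 and the lowest in 4, where over all tested probes it was the highest in 19.8% and the lowest in 19.4%.

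Mdm2 encodes the ligase that marks p53 for destruction, and p53 in turn raises its transcription. Probe 1 (ILMN_1250774) read 10.63, 10.74 and 10.78 in hSRY-OFF and 11.34, 11.43 and 11.18 in hSRY-ON hearts. Every hSRY-ON heart lay above every control, by 0.41 or more. The difference was 0.60 (SE 0.12, 95% interval 0.32 to 0.89, limma adjusted p = 0.00971), or 1.52-fold, and it passed whichever heart was left out (0.55 to 0.67). Without normalization between arrays it did not pass (adjusted p = 0.294). Probe 2 (ILMN_2850753) read 10.78, 10.61 and 10.98 against 11.11, 11.24 and 11.19, also without overlap, and its difference of 0.39 (SE 0.13) had a limma adjusted p of 0.0659, which became 0.0328 without hSRY-OFF replicate 3. The last Mdm2 probe (ILMN_1229882) was above background on no array.

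Ccng1, which encodes cyclin G1, a p53 target that recruits phosphatase 2A to MDM2, was lower in hSRY-ON hearts in all 3 of its probes. Probe 1 (ILMN_2500276) read 12.76, 12.78 and 12.83 in hSRY-OFF and 12.11, 12.12 and 12.33 in hSRY-ON hearts. Probe 2 (ILMN_2702233) read 10.69, 10.61 and 10.30 against 9.69, 9.69 and 10.001, and probe 3 (ILMN_2710229) read 11.80, 11.62 and 11.80 against 11.14, 11.01 and 11.44. No probe showed overlap between the groups, and hSRY-ON replicate 3 was in each the hSRY-ON heart nearest to the controls. The differences were -0.60 (SE 0.12, limma adjusted p = 0.00878), -0.74 (SE 0.15, limma adjusted p = 0.0111) and -0.55 (SE 0.15, limma adjusted p = 0.0295), or 1.46-fold to 1.68-fold lower. Probes 1 and 2 passed with any heart left out. Probe 3 lost its call without hSRY-OFF replicate 1 (adjusted p = 0.0992), hSRY-OFF replicate 3 (0.0615), hSRY-ON replicate 1 (0.0894) or hSRY-ON replicate 2 (0.0818), and only probe 2 passed without normalization between arrays (-0.84, adjusted p = 0.0404).

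The genes with a pair of p53 decamers in the windows printed above, Cdkn1a and Ccng1, thus had differences of opposite sign. p53 itself (Trp53) read 10.13, 9.88 and 10.16 in hSRY-OFF and 9.87, 9.66 and 9.62 in hSRY-ON hearts. The groups were apart by 0.01 only, and the difference of -0.34 (SE 0.14) did not pass (limma adjusted p = 0.104), although it did without background correction (adjusted p = 0.0484). Ccng2, the relative of cyclin G1, was above background on no array, and Mdm4, the partner of MDM2, on 1 hSRY-OFF array for 1 of its 3 probes. No probe in the table carries the symbol Cdkn3.

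**Figure D3:**
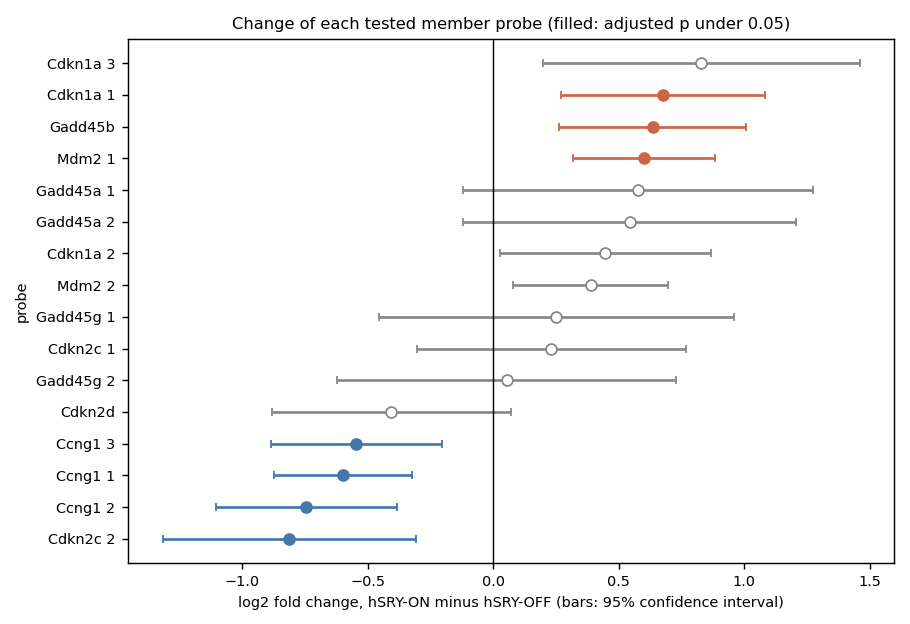
Difference between hSRY-ON and hSRY-OFF hearts (log2 scale, horizontal axis) for each of the 16 tested member probes, in order of size, with 95% confidence intervals from limma and filled points for adjusted p under 0.05. The intervals of 10 probes leave out 0, and those of Gadd45a, Gadd45g, Cdkn2d and Cdkn2c probe 1 include it.

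**Figure D4:**
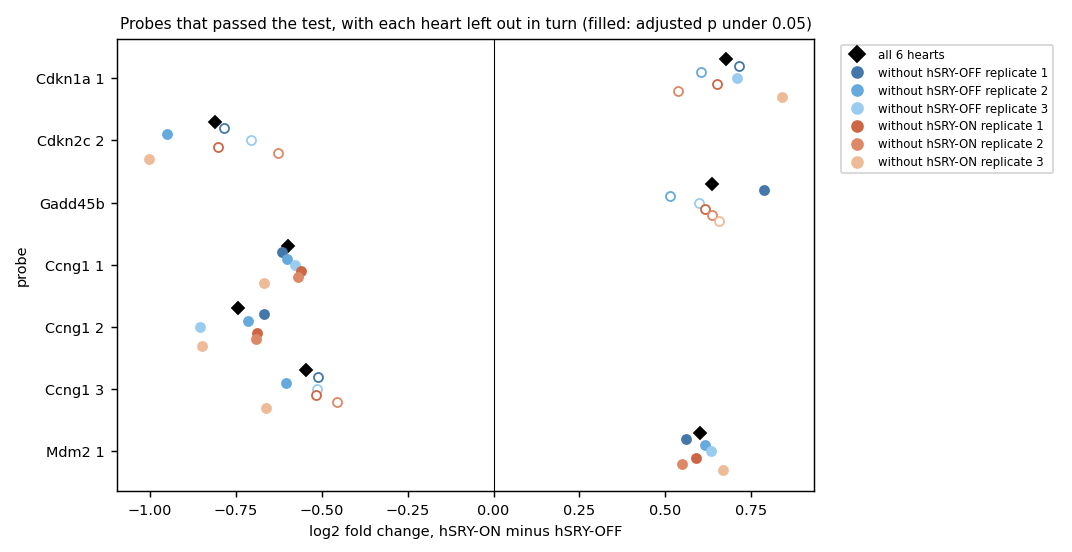
Difference between hSRY-ON and hSRY-OFF hearts (log2 scale, horizontal axis) of the 7 member probes that passed the test, with all 6 hearts (diamonds) and after omission of any 1 of them (circles), filled where the adjusted p was under 0.05. No difference changes sign, and Ccng1 probes 1 and 2 and Mdm2 probe 1 stay filled throughout.

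The genes around the members were followed through 8 lists, 112 of whose 158 genes could be tested with 1 probe a gene. These lists too were chosen with earlier results of these data known. In all 9 genes, or 8.04%, were higher and 14, or 12.5%, lower, below the 14.9% and 13.9% of all genes, with a median difference of -0.12. For p53, its regulators and its targets, 4 of 22 tested genes were higher and 2 lower, with a median of 0.31. Ddit4, a stress-induced inhibitor of mTORC1, rose by 1.25 (SE 0.39, limma adjusted p = 0.0475), from 9.99, 9.47 and 9.72 to 10.68, 11.94 and 10.32, with hSRY-ON replicate 2 the highest, as it was for Gadd45a, and without that heart the difference was 0.77 (adjusted p = 0.0382). The death receptor gene Fas rose by 0.89 (adjusted p = 0.0284) and Trp53inp1, which helps p53 act in stress, by 0.55 (adjusted p = 0.0469), and the fourth, the p53 phosphatase gene Ppm1d, named here after its value was seen, by 0.47 (adjusted p = 0.0376). The checkpoint kinase gene Chek2 fell by 1.05 (SE 0.23, adjusted p = 0.0136) and Ei24 by 0.52 (adjusted p = 0.029).

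In the list of G1 cyclins and their kinases, which also holds Cdc25a and Mnat1, 1 of 8 tested genes passed. Over all genes 28.8% passed in either direction, 14.9% as higher and 13.9% as lower. Cdk4 and Cdk6, the kinases that the INK4 proteins bind, were not among the 8: Cdk4 was not found on the array and Cdk6 was not tested. Ccnd1, the cyclin D1 gene, fell by 0.67 (SE 0.20, limma adjusted p = 0.0427), from 12.03, 12.01 and 12.24 to 11.70, 10.98 and 11.59. The list's median was 0.09. In the Rb and E2F family 1 of 12 passed, the repressor E2f6, which fell by 0.74 (SE 0.12, limma adjusted p = 0.00425), with a median of -0.19. Of the genes of DNA replication and mitosis, none of 23 was higher and 4 were lower, beside the 14.9% and 13.9% of all genes. The 4 were Cenpa (by 0.72), Kif11 (0.66), Cdc6 (0.66) and Foxm1 (0.61), the last named after its value was seen. The median was -0.50 where that of all genes was 0.00. The groups did not overlap for 12 of these 23 genes, a share near the 46.8% of all genes without overlap. The list of other kinase inhibitors and relatives had 2 tested genes, of which Cdkn1c was higher, with a median of 0.08.

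The list of ubiquitin ligase parts was drawn up for the turnover of p21 and p27, although Fbxw7 in it targets cyclin E and MYC. None of its 12 tested genes was higher and 3 were lower, beside 14.9% and 13.9% of all genes, and the median was -0.36. Fbxw7 fell by 1.16 (SE 0.14, limma adjusted p = 0.00109), Skp2, the receptor for p27, by 0.62 (adjusted p = 0.0408) and Rnf123, a ligase for p27 outside the nucleus, by 0.58 (adjusted p = 0.0185). Of 12 tested partners of Gadd45, most of them in p38 and JNK signaling, 2 were higher and 1 lower, with a median of -0.29. Mapk12 (p38 gamma) rose by 0.80 (SE 0.11, adjusted p = 0.00186) and Map2k4 by 0.36 (adjusted p = 0.0474). Map2k6, a kinase that activates p38, fell by 0.80 (SE 0.18, adjusted p = 0.0134). The 12 include Cdc2a (the CDK1 gene, -0.32), Ccnb1 (-0.39) and Pcna (-0.38), which did not pass and are also in the replication and mitosis list. Of 25 tested transcription factors known to act on these genes 2 were higher and 2 lower, with a median of 0.07. Cebpb, a stress and inflammation factor, rose by 1.39 (SE 0.26, adjusted p = 0.00722), from 9.55, 9.75 and 9.97 to 11.16, 11.68 and 10.62. Myc, a repressor of Cdkn1a, was not well above background on any hSRY-OFF array and was on all 3 hSRY-ON arrays. It thus entered the test only through the group where it was higher (limma adjusted p = 0.0216). Under the main processing its bound was at least 1.31-fold higher. Its deposited intensities overlapped, at 185, 199 and 143 in hSRY-OFF and 192, 186 and 177 in hSRY-ON hearts. Of 7 other ways of processing it passed in 5, with differences down to 0.18 and limma adjusted p up to 0.294. Zbtb17, through which MYC acts on Cdkn1a, fell by 0.39 (adjusted p = 0.0434).

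**Figure D5:**
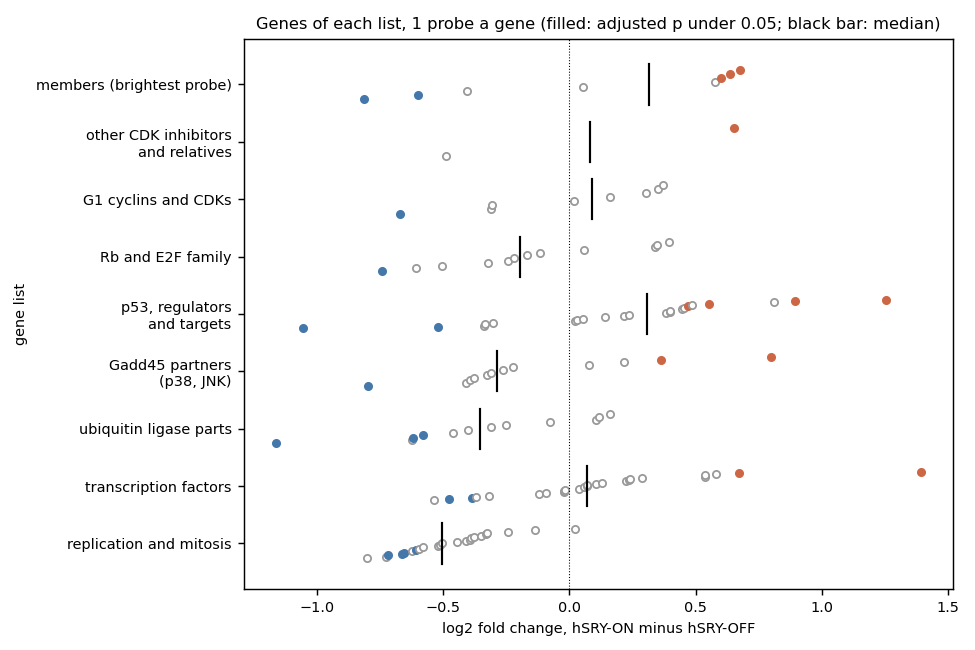
Difference between hSRY-ON and hSRY-OFF hearts (log2 scale, horizontal axis) for the members and for each tested gene of the 8 lists, with 1 probe a gene, filled points for adjusted p under 0.05 (orange higher, blue lower) and a black bar at each median. Of the 23 replication and mitosis genes 22 lie below 0 and 4 are filled, where 13.9% of all genes were lower and their median was 0.00. The members split into 3 filled points above and 2 below.

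Many of these list calls ended when 1 heart was left out. Cebpb, Chek2, E2f6, Fbxw7, Mapk12 and Cdkn1c passed in all 6 omissions, and Map2k6 in all but that of hSRY-OFF replicate 1 (adjusted p = 0.0533). Cenpa (highest adjusted p = 0.0665) was lost without hSRY-OFF replicate 1 or hSRY-ON replicate 1, and Rnf123 (0.0539) without hSRY-OFF replicate 1 or hSRY-ON replicate 3. Fas (up to 0.0887), Ei24 (0.0987) and Cdc6 (0.127) passed only without hSRY-OFF replicate 3 or hSRY-ON replicate 3, and Ddit4 (0.127) only without hSRY-ON replicate 2 or 3. Ccnd1 (up to 0.0964) passed only without hSRY-ON replicate 1, Trp53inp1 (0.119) and Kif11 (0.107) only without hSRY-ON replicate 3, Map2k4 (0.156) and Skp2 (0.133) only without hSRY-OFF replicate 3, and Zbtb17 (0.145) in no omission. Without background correction the decreases of Chek2 (-0.43, adjusted p = 0.0161), Map2k6 (-0.51, 0.00614) and Kif11 (-0.42, 0.0269) were smaller and still passed, while those of Skp2 (-0.24, 0.0595) and Cdc6 (-0.17, 0.138) did not pass. Cdc6 passed in only 1 of the 7 ways of processing under which it was tested with every heart.

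The pattern of Cdkn1a probe 1 over the 6 hearts was most closely followed, by Euclidean distance of mean-centred log2 values among 9659 other genes, by the histone H2B genes Hist1h2bf (distance 0.08) and Hist1h2bm (0.12) and by Fam113b (0.10). Hist1h2bf read 11.31, 11.15 and 11.31 in hSRY-OFF and 11.99, 12.19 and 11.67 in hSRY-ON hearts, in the same order of hearts within hSRY-ON as Cdkn1a. The likeness is a description over 6 hearts of 2 groups, and Fam113b was not well above background on any hSRY-OFF array.

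Heart tissue holds many cell types, and in such bulk RNA fewer cells of a type and less RNA per cell cannot be told apart. The counts below stand beside 14.9% of all genes higher and 13.9% lower. Of 10 tested macrophage markers 8 were higher and none lower in hSRY-ON hearts. Their summed normalized intensity was 7814 to 10660 over the hSRY-OFF hearts and 17540 to 18180 over the hSRY-ON hearts. Smooth muscle and pericyte markers had 2 of 6 higher, with a sum of 27490 to 33130 against 40240 to 44140. That sum is mostly Acta2, and 3 of the 6 had differences below 0 that did not pass (Rgs5 -0.57, Pdgfrb -0.43 and Myh11 -0.42). Cardiomyocyte markers had 1 of 13 higher and 5 lower (309200 to 318300 against 282700 to 307300), and endothelial markers 1 of 7 higher and 3 lower (27750 to 29660 against 24680 to 27260). Of the liver markers 3 of 4 tested were higher (795 to 971 against 2793 to 5016). Among those not tested, Alb and Fgb were above background on no array. Apoa1 was above background on 2 hSRY-ON arrays and Apoa2 on 1, and neither was on any hSRY-OFF array. Adipocyte markers had 2 of 4 higher, fibroblast markers 1 of 8, neutrophil markers 1 of 5, erythroid and lymphoid markers 1 of 5 and 1 of 3 lower, and the 1 tested lung marker did not pass. Lcn2, the neutrophil marker that passed, Cd163 among the macrophage markers and Ttr among the liver markers were above background on no hSRY-OFF array. These 3 thus entered the test only through the group where they were higher. The part of the cell types in the differences of the members was not tested.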

How the data were processed

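The authors hybridized total RNA of dissected heart tissue to Illumina MouseRef-8 v2.0 BeadChips. The deposited table holds mean bead intensities per probe, neither normalized nor background-subtracted, and beside each intensity the deposited detection p-value, measured against negative-control beads. Their own normalization with the R package TCC, whose settings are not given in the sources used here, is not in these values. Groups and replicate numbers came from the sample labels. Nothing says whether hearts of a group came from separate litters, so p-values measure the spread between these hearts.

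Using R 4.3.3 and limma 3.58.1, the background was corrected with the normal-exponential model (negative controls inferred from the detection p-values, offset 16), arrays were quantile normalized and log2 was taken. Probes with a detection p under 0.05 on at least 3 of 6 arrays were fitted with lmFit and eBayes, group being the only term. Adjustment of the two-sided p-values ran over 12970 probes (Benjamini-Hochberg). Where no array of a group was above background for a probe, its change was bounded from below, taken against the lowest intensity above background on each array. The steps were tested on simulated data. No arrays held identical values. Python 3.11.15 with matplotlib 3.10.9 drew the figures. The number of arrays limits the precision.

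Named were all members, Cdkn1c, Cdkn2a, Cdkn3, Ccng2, Mdm4 and Trp53 whatever their values, and of each list up to 3 increases and 3 decreases that passed without overlap of the groups. The 3 genes nearest to the brightest Cdkn1a probe were named too. One gene that the rule names is not reported here. Outside the members a gene is given by its brightest probe over the 6 arrays. Gene symbols are those of the array. Dram1, Tigar and Cdk1 were found under older symbols. The members and lists were chosen with earlier results of these data known. Alternatives were no background correction, normexp with offset 50, median scaling or no normalization between arrays, other filters on dim probes, a trend in the variance with robust fitting, a replicate block, and each heart left out in turn.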

Additional observations from a re-analysis of the deposited data

How the results depend on the processing

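Of 240 values of the 16 member probes under the alternatives, 202 kept their direction and their side of the threshold, 23 lost the call, 10 gained one and 5 changed sign. All sign changes were in Gadd45g: probe 2 was -0.04 without normalization between arrays and turned negative without hSRY-OFF replicate 3, hSRY-ON replicate 1 or hSRY-ON replicate 3, and probe 1 without hSRY-ON replicate 3. With 1 heart left out probe 2 ranged from -0.22 to 0.38 and probe 1 from -0.059 to 0.60. None of these values was called. Without normalization between arrays the median difference of all probes was -0.12, and 0 member probes were higher (3 in the report) and 2 lower (4). There 731 of all tested probes were higher and 1166 lower (1788 and 1779), and 2 list genes were higher and 7 lower (9 and 14). The SE in that setting was 0.303 alike for Ccng1 probe 1, Cdkn1a probe 1 and Gadd45b (0.118, 0.175 and 0.16 in the report). A call lost there thus does not reflect the spread of that probe alone. With no background correction 5 member probes were higher and 23 list genes lower, as with a variance trend and robust fitting (5 and 23), and normexp with offset 50 gave 5 higher member probes. Without the filter on dim probes 9 list genes were lower. The cause of these changes was not tested.

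With 1 heart left out, 1 to 4 member probes were higher and 2 to 4 lower, 1081 to 1821 of all probes were higher and 1061 to 1848 lower, and 3 to 8 list genes were higher and 3 to 22 lower. Nothing in the labels says whether the replicate numbers pair the hearts. Deviations of same-numbered hearts from their group means correlated at -0.03, 0.04 and -0.07, and 2 of 6 hearts correlated best with their own number. With 3 hearts a group these values cannot settle whether hearts were paired. With a replicate block 2 member probes were higher (Cdkn1a probe 1 did not pass, adjusted p = 0.0594) and 4 lower, 4 list genes were higher and 10 lower, and 1420 and 1422 of all probes were higher and lower. Probes above background on fewer than 3 arrays, among them all those of Cdkn1b and Cdkn2b, were not tested and set no limit on a change of these genes.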
